A study of Rattus norvegicus with 4 samples.

Results

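Of 16568 genes named on the array, 10 genes of fatty acid activation and carriage are described here: the acyl-CoA synthetases Acsl1, Acsl3, Acsl4, Acsl5, Acsl6 and Acsbg1, the fatty acid binding proteins Fabp3, Fabp5 and Fabp7, and the transport protein Slc27a1. They were taken as the non-control probes whose transcript accession led to one of these symbols. All 10 genes were found, on 12 of the 45598 non-control probes of the array, and each of the 12 probes was well above background on 4 of 4 arrays. In all, 11656 genes were tested. The arrays measured oligodendrocyte precursor cells (OPCs), the progenitors of myelinating glia, grown from pooled cerebral cortices of Sprague-Dawley rats at postnatal day 2. The cells were first expanded with growth factors. At the switch to differentiation medium with thyroid hormone, they were transfected with 50 nM of a pool of small interfering RNAs, either non-targeting (siNEG) or against Gpr17, a G protein-coupled receptor of immature oligodendrocytes (siGPR17). RNA was taken after 48 h, at 2 days in differentiation, from 2 siNEG and 2 siGPR17 samples that the labels number as replicates. Transfection was transient and all 4 samples carried lipid and small interfering RNA, so no untransfected level is given.

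A fatty acid that enters a cell is bound by a fatty acid binding protein, a small carrier that keeps it in solution, and is activated to its acyl-CoA thioester by an acyl-CoA synthetase. Acyl-CoA is the form used for phospholipids, triglycerides, cholesterol esters, the sphingolipids of myelin and mitochondrial oxidation. The long-chain synthetases (Acsl) differ in the membranes they sit on and in the fatty acids they prefer, and oligodendrocytes need large amounts of these products when they wrap axons.

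Values are processed intensities scaled to the 75th percentile of each array, in the same arbitrary unit on all arrays. Levels are compared between arrays for 1 probe. Across probes, signals served only to name brighter and dimmer ones and to sum marker lists. Differences are siGPR17 minus siNEG on the log2 scale, tested with limma (2-sided, Benjamini-Hochberg over all 28016 tested probes). The thresholds were those of the study's methods, a fold change of 1.5 with an adjusted p under 0.07. The 75th percentile before scaling was 565 to 624, and 26997 to 28244 probes were well above background on an array. The 4 arrays shared 1 slide. Both siNEG arrays lay in 1 column of the slide and both siGPR17 arrays in another, so column and treatment cannot be told apart. The targeted gene, Gpr17, had signals of 1107 and 1113 in siNEG and 652 and 639 in siGPR17, a log2 difference of -0.78 (SE 0.08, n = 2 per group, adjusted p = 0.209 in limma), and the groups did not overlap. In bulk RNA, fewer cells of a type and less RNA per cell cannot be told apart.

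Among the 10 genes, Acsl3 had the highest log2 difference, at 1.51 times its siNEG level, and all 3 fatty acid binding proteins had lower values in siGPR17, Fabp5 by the most. Of the 6 synthetases named Acsl or Acsbg1, 4 were higher in both siGPR17 arrays than in both siNEG arrays, 1 was lower in both and 1 overlapped. No member passed the thresholds in limma, nor did any of the 11656 genes (0%). Of the 28016 tested probes 1 passed, and it did not stand for a gene. The study reports a list of differentially expressed genes at these thresholds, and its methods name no test for the arrays. This limma fit did not return that list. With 2 samples a group, the smallest 2-sided p that an exact permutation test over samples allows is 0.333. An unadjusted p under 0.05 in limma was found for 2 members, Acsl3 and Fabp5, against 16.2% of all genes. The groups did not overlap in 8 of the 10 members, against 53.4% of all genes. The fold change reached 1.5 in 1 member, Acsl3, against 5.08% of all genes, and 5 of 10 members had higher values, against 52% of all genes, Acsl1 and Slc27a1 with overlapping groups among the 10. The median log2 difference was -0.0011 over the members and 0.0099 over all genes, while the median of the absolute difference was 0.25 over the members and 0.14 over all genes. With limma's trend and robust options 1 member passed, Acsl3, against 1.58% of all genes. After normexp background correction the same single gene passed, against 0.961%.

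**Figure D1:**
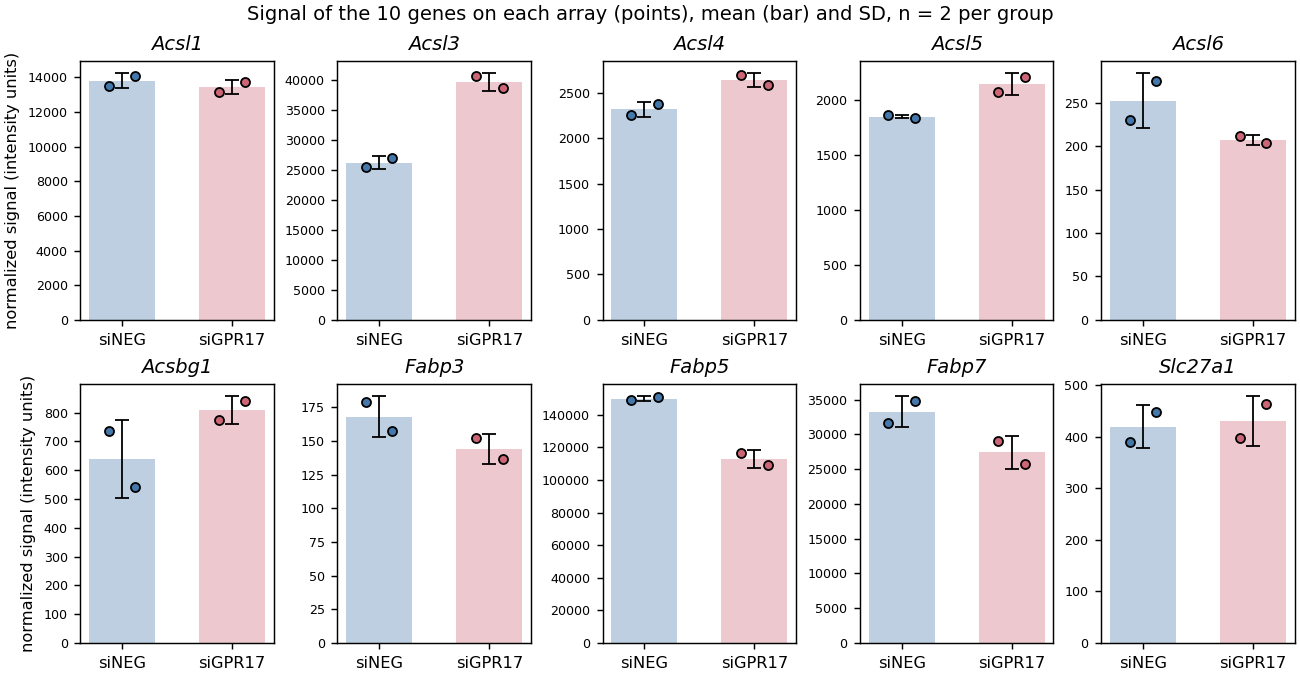
Normalized signal (arbitrary intensity units, linear axis from 0, a scale of its own for each gene) of the 10 genes in siNEG and siGPR17. Points are the 4 arrays, bars the mean of 2 and whiskers the SD. Both Acsl3 points of siGPR17 lie above both of siNEG, both Fabp5 points lie below, and the groups overlap for Acsl1 and Slc27a1.

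Acsl3, a synthetase of the endoplasmic reticulum and of nascent lipid droplets, had signals of 25436 and 26993 in siNEG and 40642 and 38569 in siGPR17. Both siGPR17 arrays were above both siNEG arrays, and the gap between the groups was wider than the gap between replicates of either group. The means were 26214 ± 1101 and 39606 ± 1466 (SD, n = 2), a log2 difference of 0.60 (SE 0.09, 95% interval 0.34 to 0.85). The adjusted p was 0.209 in limma, 0.0286 with its trend and robust options and 0.0266 after normexp, where the log2 difference was 0.62. Acsl3 stood 272nd from the top among the 11656 genes ordered by log2 difference. It lay close to the fold threshold. Without siNEG replicate 1 the log2 difference was 0.55, without siGPR17 replicate 1 it was 0.56 and after quantile normalization 0.55, and the fold change was then under 1.5. Acsl3 and Fabp5 are among the lipid genes that the study picked out on these same 4 arrays, so their directions here are not independent evidence.

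Promoter sequence was read from RefSeq (rat build GRCr8), as the 250 bases before the annotated start, for 9 of the 10 genes (Fabp5 was not matched). The windows of Acsl3, the gene with a fold change of 1.5 on its brightest probe, and of Fabp7, the binding protein of brain, are shown 5′ to 3′ on the gene's strand. Capitals mark 5 motifs, searched on both strands, and adjoining motifs run together. The letters searched were CCAAT for the box of that name and GGGCGG for the box bound by factors of the Sp family, here called the GC box. For a half-site of nuclear receptors they were AGGTCA. The TATA box was searched as TATAAA. For the symmetric E-box the letters searched were CACGTG. The Acsl3 window is chr9:87563351-87563600 and that of Fabp7 is chr20:37669356-37669605, both on the plus strand.
Acsl3: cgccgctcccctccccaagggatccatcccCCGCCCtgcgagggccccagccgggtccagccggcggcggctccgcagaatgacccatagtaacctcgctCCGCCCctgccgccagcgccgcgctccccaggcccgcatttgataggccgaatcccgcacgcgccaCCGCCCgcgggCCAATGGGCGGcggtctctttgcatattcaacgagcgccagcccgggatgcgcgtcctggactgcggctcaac
Fabp7: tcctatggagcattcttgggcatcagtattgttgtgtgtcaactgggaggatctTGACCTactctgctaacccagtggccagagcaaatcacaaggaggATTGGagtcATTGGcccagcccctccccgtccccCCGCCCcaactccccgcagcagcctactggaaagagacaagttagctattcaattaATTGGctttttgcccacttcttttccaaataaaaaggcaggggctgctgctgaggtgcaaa
In Acsl3, a CCAAT box from 73 to 69 bases before the start is followed directly by a GC box from 68 to 63 bases before it, and 3 more GC boxes lie upstream on the other strand. Its window is 72.4% G and C. Fabp7 has 3 CCAAT boxes, 1 GC box and 1 half-site, all on the other strand, in a window of 51.6% G and C. A CCAAT box was found in 5 of the 9 windows (Acsl1, Acsl3, Acsbg1, Fabp7 and Slc27a1) and in 34.0% of 33469 promoters of the same length. GC boxes were found in 5 of 9 (Acsl3, Acsl4, Acsl6, Acsbg1 and Fabp7), the 2 of Acsl4 overlapping each other, against 30.5% of promoters. The half-site was found in Fabp7 and Slc27a1 (2 of 9) against 14.1%. The TATA box was found in Acsl5 (1 of 9) against 12.9%, and the E-box in 0 of 9 against 5.59%. These matches describe letters in a window and say nothing of binding.

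Acsl4, which prefers arachidonic acid and other polyunsaturated fatty acids, had signals of 2258 and 2378 in siNEG and 2692 and 2590 in siGPR17. Its groups did not overlap, and the log2 difference was 0.19 (SE 0.09, 95% interval -0.06 to 0.43, adjusted p = 0.374 in limma). Acsl5, a synthetase of mitochondria and endoplasmic reticulum best known from intestine and liver, had signals of 1863 and 1840 in siNEG and 2079 and 2216 in siGPR17. Here too both siGPR17 arrays were the higher ones, with a log2 difference of 0.21 (SE 0.09, 95% interval -0.03 to 0.46, adjusted p = 0.337 in limma). Acsl1, the synthetase of oxidative and fat-storing tissues, had signals of 13506 and 14100 in siNEG and 13171 and 13724 in siGPR17. The groups of Acsl1 overlapped, and its log2 difference was -0.04 (SE 0.09, 95% interval -0.28 to 0.21, adjusted p = 0.855 in limma), an interval that lies inside a fold change of 1.5 in either direction.

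Acsl6, a synthetase enriched in brain that serves docosahexaenoic acid, was the 1 synthetase with both siGPR17 arrays lower. Its brighter probe gave 230 and 275 in siNEG and 211 and 203 in siGPR17, a log2 difference of -0.28 (SE 0.12, 95% interval -0.62 to 0.06, adjusted p = 0.350 in limma). Without siNEG replicate 1 this was -0.41 and without siNEG replicate 2 it was -0.15. After normexp it was -0.17. The dimmer probe, listed under a predicted transcript, gave 32.7 and 34.1 in siNEG and 21.8 and 31.7 in siGPR17, close to background. Its log2 difference was -0.35 (SE 0.21, adjusted p = 0.452 in limma) and 0.00078 after normexp, so the lower value of this probe was not seen with that background correction. Of 11 neuronal markers tested, 10 were lower in siGPR17, as Acsl6 was, while 52% of all genes were higher. Their summed signal was 15948 to 17040 in siNEG and 13082 to 13732 in siGPR17. Most of that sum came from Dcx and Map2, so it says little of the other markers. All 11 tested neuronal markers, Rbfox3 and Tubb3 among them, were well above background on all 4 arrays, and Slc17a7 of glutamatergic neurons was so on 0 of 4. The part of neurons in the Acsl6 value was not tested.

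Acsbg1, a bubblegum-family synthetase of long and very long fatty acids known from brain, was printed as 10 spots per array. Their means were 735 and 542 in siNEG and 774 and 842 in siGPR17. The siGPR17 arrays were both higher, but the 2 siNEG arrays differed by 0.44 on the log2 scale, more than the 0.35 between the groups (SE 0.18, 95% interval -0.14 to 0.85, adjusted p = 0.393 in limma). Spots of 1 array were read from 674 to 786 in siNEG replicate 1 and from 412 to 598 in siNEG replicate 2. In siGPR17 they ran from 701 to 815 and from 813 to 900. No spot of siNEG replicate 2 reached the lowest spot of any other array, so the low mean of that array was shared by all its spots. Without siNEG replicate 2 the log2 difference was 0.13, and without siNEG replicate 1 it was 0.58. The value therefore rested on which siNEG sample was used.

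**Figure D2:**
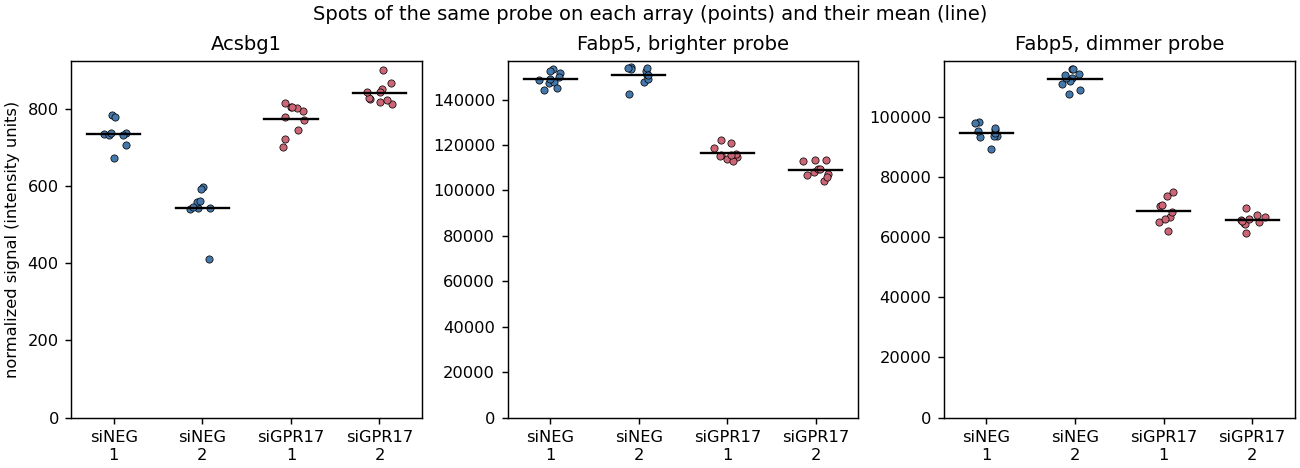
Normalized signal (arbitrary intensity units, linear axes from 0) of the single spots of 3 probes on each of the 4 arrays, with lines at the spot means. For Acsbg1 the spots of siNEG replicate 2 (412 to 598) lie below all others, and for both Fabp5 probes every siGPR17 spot lies below every siNEG spot.

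Fabp5, the epidermal-type binding protein that also carries ligands to the nuclear receptor PPAR delta, was measured by 2 probes with 10 spots each. The brighter probe gave 149009 and 150910 in siNEG and 116595 and 108987 in siGPR17, that is 149960 ± 1344 and 112791 ± 5379 (SD, n = 2). Both siGPR17 arrays were the lower ones, with a log2 difference of -0.41 (SE 0.09, 95% interval -0.66 to -0.16, a 1.33-fold difference, adjusted p = 0.216 in limma). With the trend and robust options the adjusted p was 0.0626 and after normexp 0.0616, and the fold change stayed under 1.5. The dimmer probe gave 94673 and 112354 in siNEG and 68490 and 65542 in siGPR17. Its groups did not overlap either, with a log2 difference of -0.62 (SE 0.12, 95% interval -0.96 to -0.29, a 1.54-fold difference). For this probe the adjusted p was 0.210 in limma, 0.0378 with the trend and robust options and 0.0426 after normexp, so it passed both thresholds in those alternatives and the brighter one did not. Spots of 1 array had an SD of 0.03 to 0.04 on the log2 scale for the brighter probe and 0.03 to 0.09 for the dimmer one. The RefSeq table lists pseudogenes of Fabp5, and whether either probe also reads their transcripts is uncertain.

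Fabp7, the brain-type binding protein of radial glia, astrocytes and OPCs, had signals of 31691 and 34809 in siNEG and 29092 and 25723 in siGPR17. Both siGPR17 arrays lay below both siNEG arrays, with a log2 difference of -0.28 (SE 0.11, 95% interval -0.59 to 0.03, adjusted p = 0.328 in limma). Fabp3, the heart-type protein also present in neurons, had signals of 179 and 157 in siNEG and 152 and 136 in siGPR17. Its lower siNEG value lay close to its higher siGPR17 value, and the log2 difference was -0.22 (SE 0.12, 95% interval -0.54 to 0.11, adjusted p = 0.419 in limma). Without siNEG replicate 1 that of Fabp3 was -0.13, without siGPR17 replicate 2 -0.14, and after normexp -0.11. The median of the 3 binding proteins was -0.28. Each of the 3 was below 0 in every alternative that could move its value, 9 for Fabp5 and 8 each for Fabp3 and Fabp7. Their groups did not overlap, so leaving out 1 array could move the value but could not reverse its sign.

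Markers of other cells were read beside these values. All 8 OPC markers, Pdgfra, Cspg4 and Sox10 among them, were well above background. Each had a lower fitted value in siGPR17, with a median log2 difference of -0.19. The groups did not overlap in 6 of the 8, against 53.4% of all genes. Sox10 differed by -0.02 (SE 0.11) with overlapping groups. The fitted differences of these markers and of the Fabp genes had the same sign, and a link between them was not tested. Of 11 astrocyte markers tested, 5 were higher and 6 lower, and all 11 were well above background on all 4 arrays, while Gjb6 was so on 0 of 4. Their summed signal, 117985 to 132793 in siNEG and 121297 to 122586 in siGPR17, was nearly all from Aldoc and says little of the other markers. On the log2 scale Aqp4, the astrocyte water channel, differed by -1.35, Gfap, the astrocyte filament protein, by -0.61 and Slc1a3, a glutamate transporter, by -0.37. S100b, a calcium-binding protein also made by oligodendrocytes, differed by 0.50, from 2256 and 2524 in siNEG to 3338 and 3415 in siGPR17. Gja1 (0.33), Aldh1l1 (0.27), Sox9 (0.19) and Ntsr2 (0.07) were higher too, each with overlapping groups. The median of the 11 astrocyte markers was -0.03. Of 10 tested markers of differentiating and mature oligodendrocytes, 5 were higher and 5 lower, and Mal was well above background on 0 of 4 arrays. Microglial markers (9 of 10 lower, summed signal 2728 to 4053 in siNEG and 2750 to 3197 in siGPR17), endothelial markers (4 of 5 higher, 1139 to 1240 and 1612 to 1715) and fibroblast and mural markers (3 of 4 higher, 439 to 558 and 538 to 547) were also read. Csf1r and Ptprc of microglia, Pecam1 and Cldn5 of endothelium and Pdgfrb of mural cells were well above background on 0 of 4 arrays. The brightest marker of each list, Cx3cr1 of microglia, Vwf of endothelium and Col1a2 of fibroblasts, was so on all 4 arrays. Cd68 and P2ry12 of microglia and Kdr of endothelium were also well above background on all 4. The part of these cells, and of neurons for Fabp3, in the Fabp and Acsbg1 values was not tested.

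Slc27a1, a fatty acid transport protein that couples uptake to activation, had signals of 391 and 449 in siNEG and 397 and 464 in siGPR17. The groups overlapped, and the log2 difference was 0.04 (SE 0.13, 95% interval -0.33 to 0.40, adjusted p = 0.910 in limma). Leaving out siNEG replicate 1 gave -0.06 and leaving out siGPR17 replicate 2 gave -0.08, so its sign was not settled.

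**Figure D3:**
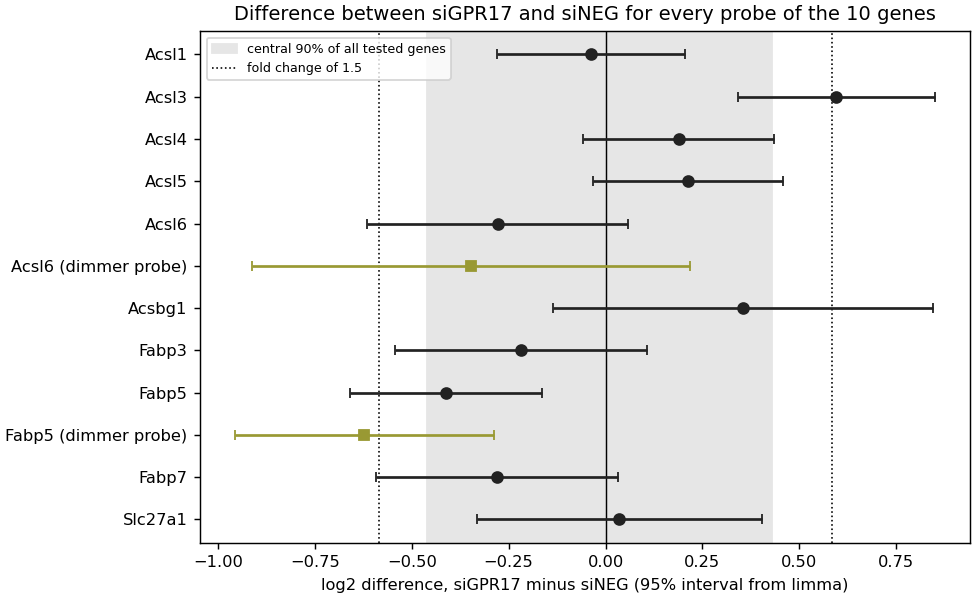
Log2 difference, siGPR17 minus siNEG, of all 12 probes of the 10 genes with the 95% interval from limma. Squares are the dimmer second probes, dotted lines a fold change of 1.5 and grey the central 90% of the 11656 tested genes (-0.46 to 0.43). The intervals of Acsl3 and of both Fabp5 probes leave out 0, and that of each other probe includes it.

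The choice of setting moved some of these values more than others. Of the 14 alternatives, 5 or 6 leave a gene's log2 difference as it is by construction and change its test or filter alone. Over the others Acsl3 ranged from 0.55 to 0.72, Acsl4 from 0.15 to 0.32, Acsl5 from 0.17 to 0.34 and Acsbg1 from 0.13 to 0.58. Fabp5 ranged from -0.52 to -0.28, Fabp7 from -0.37 to -0.15, Fabp3 from -0.31 to -0.09 and Acsl6 from -0.41 to -0.15. Each of these 8 genes kept its sign in each of the 8 or 9 settings that could move it. Their groups did not overlap, so leaving out 1 array could not have reversed a sign. Acsl1 (-0.07 to 0.09) and Slc27a1 (-0.08 to 0.16), whose groups overlapped, did not keep theirs. Scaling on the spike-in controls, RNAs added at labelling, moved the median of all genes from 0.01 to 0.14 and the share of genes higher in siGPR17 from 52.0% to 72.7%. This scaling shifts every gene by the same amount by construction, and 6 of 10 members were then higher.

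**Figure D4:**
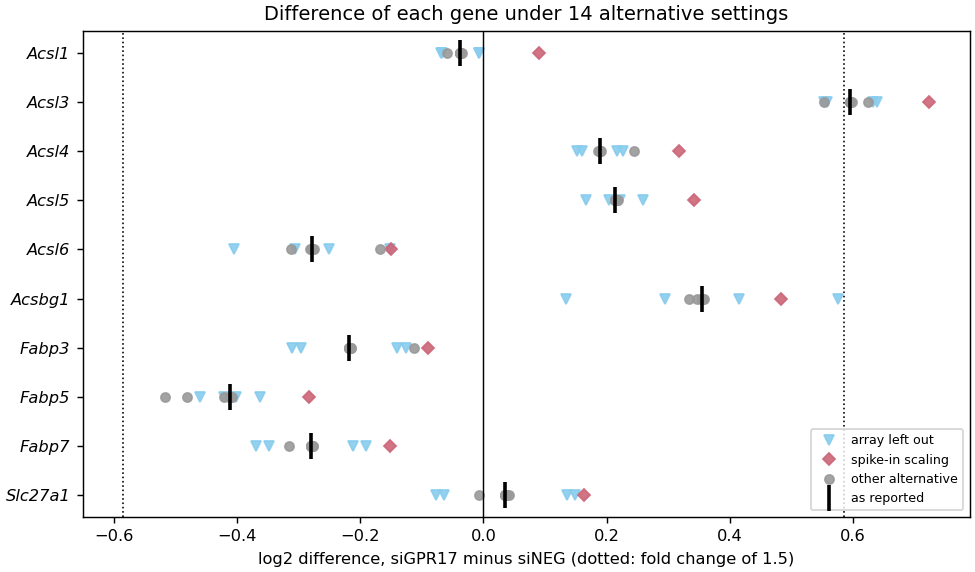
Log2 difference of each of the 10 genes as reported (black bars) and under 14 alternatives: 1 array left out (triangles), scaling on spike-in controls (diamonds) and the others (circles). Dotted lines mark a fold change of 1.5. Acsl3 stays between 0.55 and 0.72, Acsbg1 spreads from 0.13 to 0.58, and Acsl1 and Slc27a1 cross 0.

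The other genes of the pathway were read from 5 lists, and none of their genes passed the thresholds in limma, as for all genes. With the trend and robust options Slc27a3 (adjusted p = 0.0425) and Pmp2 (adjusted p = 0.0659) passed, and after normexp Slc27a3 did (adjusted p = 0.0510, log2 difference 0.61). Of 4 tested genes among the other acyl-CoA synthetases, 3 had higher values in siGPR17, 1 had a lower value and the median was 0.11. Acss2, which makes cytosolic acetyl-CoA for fatty acid and sterol synthesis, gave 1178 and 1337 in siNEG and 1774 and 1841 in siGPR17. Its groups did not overlap, and the log2 difference was 0.53 (SE 0.11, adjusted p = 0.212 in limma). Acsm1, a medium-chain synthetase that the study also picked out on these arrays, was well above background on 1 of 2 siNEG arrays and on none of siGPR17, and was not tested. Its signals were 17.2 and 20.8 in siNEG and 5.40 and 9.05 in siGPR17, near background, so no fold change is given. A further 6 genes of this list were well above background on 0 of 4 arrays.

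Among 9 tested genes of fatty acid uptake, 5 were higher, 4 were lower and the median was 0.05. Slc27a3, a relative of Slc27a1, gave 178 and 184 in siNEG and 274 and 357 in siGPR17, a log2 difference of 0.79 (SE 0.16, adjusted p = 0.212 in limma), and was larger than any member's. It was the 1 gene of the list with an unadjusted p under 0.05. Slc27a4, another transport protein of the family, differed by 0.15 (SE 0.10) with groups that did not overlap. Cd36, the fatty acid translocase, and Lpl, lipoprotein lipase, were well above background on 0 of 4 arrays.

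Among 13 tested genes of other lipid binding proteins, 9 were higher, 4 were lower and the median was 0.08. Pmp2, the fatty acid binding protein of peripheral myelin, gave 49.2 and 57.2 in siNEG and 88.3 and 96.0 in siGPR17, a log2 difference of 0.80 (SE 0.12, adjusted p = 0.209 in limma). Rbp2, a cellular retinol binding protein, was also higher, by 0.51 (SE 0.11). Crabp1, a retinoic acid carrier, and Acbd7, an acyl-CoA binding domain protein, were well above background in siNEG and not in siGPR17. Signals of Crabp1 were 21.1 and 20.8 in siNEG and 13.5 and 15.8 in siGPR17. Those of Acbd7 were 21.5 and 23.6 in siNEG and 16.4 and 17.7 in siGPR17. Both passed the filter on dim probes through siNEG alone and rest on siGPR17 signals near background, so no test is read from them. Dbi, the acyl-CoA binding protein that receives the synthetases' product, differed by 0.04 (SE 0.09). Fabp1, Fabp2, Fabp4 and Fabp9 were well above background on 0 of 4 arrays.

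Acyl-CoA thioesterases, which undo the reaction of the synthetases, had higher values for 9 of 12 tested genes and lower ones for 3, and the median was 0.23. An unadjusted p under 0.05 was found for 4 of the 12, against 16.2% of all genes, Them4 (0.51), Them5 (0.50), Acot1 (0.49) and Acot13 (0.26), all higher on the log2 scale. Signals of Them4 were low, at 21.5 and 27.3 in siNEG and 34.7 and 34.0 in siGPR17. So were those of Them5, at 32.8 and 35.5 in siNEG and 46.3 and 50.3 in siGPR17. Acot13, a mitochondria-associated thioesterase, had the closest replicates of the 4, at 2369 and 2367 in siNEG and 2856 and 2821 in siGPR17. Of the receptors that fatty acids activate, Ppara gave 211 and 283 in siNEG and 163 and 150 in siGPR17. That is a log2 difference of -0.64 (SE 0.18, adjusted p = 0.244 in limma), with groups that did not overlap. Ppard, the receptor that Fabp5 supplies, differed by 0.28 (SE 0.15), Rxra, the common partner, by 0.49 (SE 0.15), and Pparg was well above background on 0 of 4 arrays. Signals of Ppard and Rxra were also low, 47.2 to 65.7 and 32.0 to 53.0 over the 4 arrays. Over this list of 6 tested genes, 4 had higher values, 2 had lower ones and the median was 0.14.

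**Figure D5:**
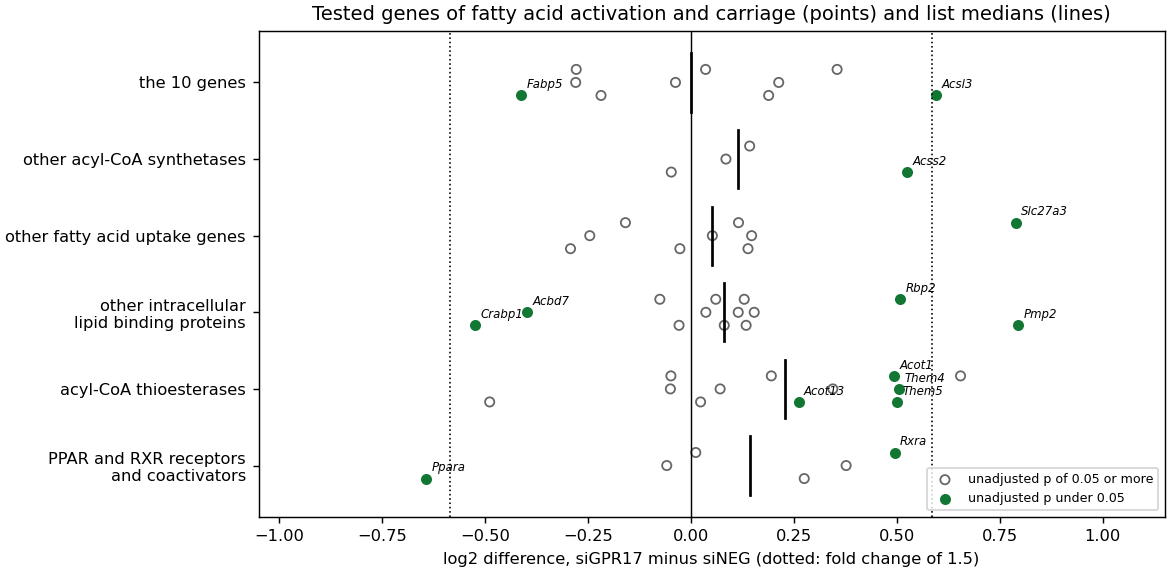
Log2 difference, siGPR17 minus siNEG, of the tested genes in the 5 pathway lists and of the 10 genes, 1 point each, with a line at each median. Filled points are genes with an unadjusted p under 0.05, named beside them, and dotted lines mark a fold change of 1.5. Slc27a3, Pmp2 and an open point of the thioesterases lie to the right of Acsl3. Ppara, Crabp1 and another open point of the thioesterases lie to the left of Fabp5. Crabp1 and Acbd7 passed the filter on dim probes through siNEG alone, so their filled points are not read as tests.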

How the data were processed

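RNA from 2 siNEG and 2 siGPR17 samples was measured on 4 one-colour Agilent rat arrays. The authors deposited the spot intensity of each array as Agilent Feature Extraction 10.7.3.1 gave it, corrected for background and not normalized between arrays. Spot and background medians in the same deposited files, intensities before correction, served for normexp (offset 50) in place of spot means. Control spots and spots flagged as outliers were left out, spots of 1 probe were averaged, and the 75th percentile of log2 values over non-control probes was subtracted per array. The 28016 probes well above background on at least 2 of 4 arrays were fitted with lmFit and eBayes (limma 3.58.1, R 4.3.3), without a block, and the fit was tested on simulated data. Printed signals are the normalized values times 1 factor common to all arrays.

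Probes were named through transcript accessions matched to RefSeq (GRCr8), which gave symbols to 21093 of 45565 probes with a value. The brightest tested probe stood for a gene, and a member's other probe was given beside it. All 10 members, Gpr17, a few preset relatives and, of each pathway list, up to 6 genes with an unadjusted p under 0.05 were named, with markers that were brightest or near background. Members and lists were chosen with earlier results of these data known. The arrays' number limits precision, and p-values set each difference against the spread between these samples, which limma moderates over all tested probes. The alternatives, among them the methods' t-test, another background correction, other scalings and filters and arrays left out, are given in the closing section. Protein sequences and the study's other assays were not analysed here.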

Additional observations from a re-analysis of the deposited data

How the results depend on the processing

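Of 140 values of the 10 genes under 14 alternatives, 134 kept their direction and their side of the thresholds, 2 passed them and 4 reversed. The log2 difference is fixed by construction in 58 of the 140, and 78 of the other 82 kept their sign. For the 8 genes whose groups did not overlap, the sign could not reverse where 1 array was left out. Slc27a1 was -0.0066 after normexp, and over arrays left out it ran from -0.0775 to 0.148. Acsl1 was 0.0909 with spike-in scaling. The number of members past the thresholds was 1 (Acsl3) after normexp and 1 with the trend and robust options, and 0 under the methods' t-test, where the unadjusted p of Acsl3 was 0.00908 and that of Fabp5 was 0.0142. The number with a fold change of 1.5 or more was 0 after quantile normalization and ran from 0 to 1 over arrays left out, being 0 without siNEG replicate 1 and without siGPR17 replicate 1. The members' median was 0.0016 when scaled on the median of detected probes, 0.13 with spike-in scaling, and ran from -0.0724 to 0.0703 over arrays left out. Gpr17 passed the thresholds after normexp (-0.66, adjusted p = 0.0220 in limma) and with the trend and robust options (-0.78, adjusted p = 0.0152 in limma). In the fit with the replicate number as a block, Acsl3 had a log2 difference of 0.60 and an adjusted p of 0.390 in limma, and 0 members passed, as without the block. Samples of the same number did not deviate together (correlation -0.07), so the number is not taken as a pairing. Scaling on spike-in controls or on the median of detected probes shifts every gene alike by construction. The cause of the other changes was not tested. Where 1 array was left out, the lone sample was assumed to vary like the other group. Signals near background, such as the dimmer Acsl6 probe, limit what can be read.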
